A study of Rattus norvegicus with 12 samples.

Results

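A set of 156 genes, of 20842 in the table, had clearly more RNA in ATG5KO NRK cells than in either WT or VAMP7KO NRK cells. They were chosen from their CPM (the reads of a gene over all reads of the library, times 1000000). The mean of the 4 ATG5KO libraries had to be at least 1 CPM, the lowest ATG5KO library had to exceed 4 times the highest of the 8 WT and VAMP7KO libraries, and the VAMP7KO mean plus 0.1 CPM had to lie between 0.5 and 2 times the WT mean plus 0.1 CPM. Of 164 genes that passed, 8 were left out by symbol (Alx4, Igfbp7, Lama4, Oasl2, P3h4, Slc1a3, Slc37a2 and Slc38a4). The levels in all 3 genotypes were thus the means of choice, so the height of these genes in ATG5KO and their low level elsewhere are a description and were not tested as a result.

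NRK is an established line from normal rat kidney. GEO labels the cells epithelial, while the study calls them fibroblastic and in its discussion also writes of epithelial cells. WT libraries held both the epithelial keratin Krt8, at a mean of 782 CPM, and the fibroblast genes Col1a1, at 884 CPM, and Twist1, at 66.0 CPM. The study compared the parental wild-type cells (WT) with cells in which Vamp7 (VAMP7KO) or Atg5 (ATG5KO) had been disrupted with CRISPR-Cas9, without any drug or starvation before RNA was taken. Each knockout line was grown from sorted single cells, so a difference that arose in the founder cell cannot be told apart from an effect of the lost gene. There were 4 libraries of poly(A) RNA per genotype, with 21090858 to 31525111 reads counted on genes. Vamp7 RNA was at 40.3 to 51.2 CPM in VAMP7KO against 106 to 116 CPM in WT and 128 to 132 CPM in ATG5KO, and Atg5 itself was not analysed here. Libraries of each genotype fell into replicates 1 and 2 on one side and replicates 3 and 4 on the other, a split that the labels do not explain and that is followed below as replicate sets. The study describes the 4 replicates as independent and used a batch term in its own model, and the sources used here do not say which libraries formed a batch. The replicate sets are therefore not called batches, and p-values measure only the spread between these libraries.

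ATG5 is joined to ATG12, and the conjugate attaches the LC3 proteins to lipid, a step by which autophagosomes form and mature. VAMP7 is an R-SNARE of late endosomes and lysosomes and acts in the fusion of these organelles with the plasma membrane and with autophagosomes. Cells that lack ATG5 cannot carry out conventional autophagy, and the study used both lines in work on secretion from late endosomes.

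The genes gained in ATG5KO differed widely in level. Their mean ATG5KO level ran from 1.01 to 211 CPM with a median of 4.77 CPM. It was over 100 CPM for 4 genes, over 10 CPM for 38 and under 2 CPM for 39, and the 10 highest genes held 46.3% of the summed level. Summed over all 156 genes, the level was 2716, 2479, 1539 and 1519 CPM in ATG5KO replicates 1 to 4. The sums were 103, 96.3, 55.5 and 55.2 CPM in WT and 80.5, 75.9, 64.7 and 65.0 CPM in VAMP7KO. Both sets of ATG5KO were far above all other libraries, and replicates 3 and 4 held less than replicates 1 and 2 in every genotype.

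**Figure D1:**
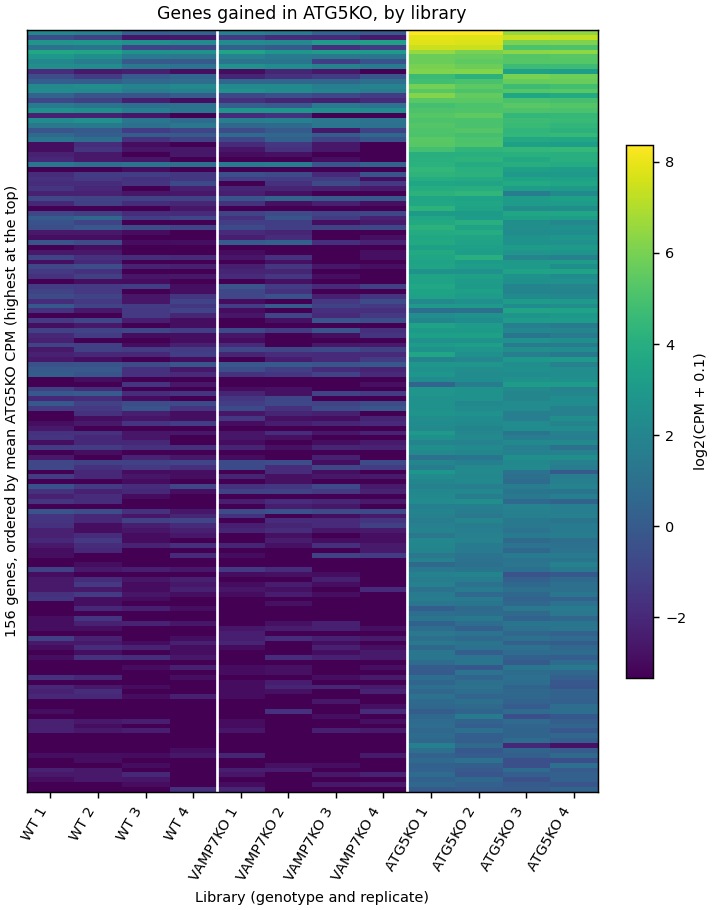
Heat map of log2(CPM + 0.1) for the 156 genes (rows, ordered by mean ATG5KO CPM) in the 12 libraries (columns, by genotype and replicate). The 4 ATG5KO columns are lighter than the 8 WT and VAMP7KO columns in nearly every row, as the choice of genes requires; many upper rows are darker in ATG5KO replicates 3 and 4 than in 1 and 2.

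Most of these genes were close to silent outside ATG5KO. Up to 3 counts in a library were treated as the floor of detection, equal to 0.0952 to 0.142 CPM. All 8 WT and VAMP7KO libraries were at the floor for 41 genes and at 0 counts for 6 of those, whereas all 8 were above it for 30 genes. The highest of the 8 libraries exceeded 1 CPM for 23 genes. With libraries under the floor set to the floor, the lowest ATG5KO library was 7.65 times the highest other library at the median of the 156 genes, over 10 times for 59 genes and 263 times at most, for Ccl21. Just inside the limit of 4 stood Zfp474 (4.02), Arhgap27 (4.03) and Cd300a (4.04), and just outside it Krt76 (3.97), Msi1 (3.97) and Svopl (3.88).

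**Figure D2:**
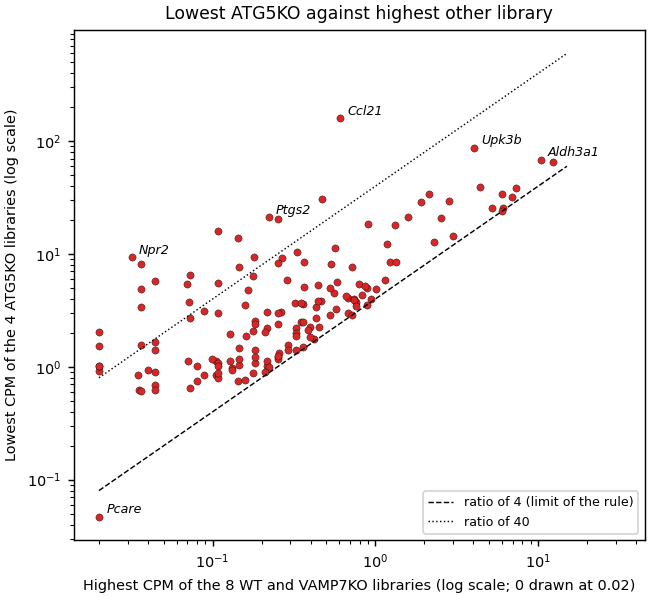
Lowest of the 4 ATG5KO libraries (y axis, CPM, log scale) against the highest of the 8 WT and VAMP7KO libraries (x axis, CPM, log scale, 0 drawn at 0.02) for each of the 156 genes. Points with a level above 0 on the x axis all lie above the dashed line of the rule (ratio of 4), with Ccl21 and Npr2 far above it. Pcare, at 0 in all other libraries, is at the lower left, below the line only because 0 is drawn at 0.02.

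Of 11577 genes with a mean ATG5KO level of at least 1 CPM, 205 (1.77%) met the limit on the fold, before the limit on VAMP7KO and the symbols left out were applied. Under edgeR's quasi-likelihood test, adjusted by Benjamini-Hochberg over 13141 genes, 155 of the 156 genes could be tested and 155 were called higher in ATG5KO than in WT, where 23.6% of all tested genes were called higher. In VAMP7KO against WT, 5 of the 155 were called, where 22.9% of all tested genes were called in either direction. Map3k5 and Fcgr2a were the 2 called higher and Lrrn4, Cgn and Prelp the 3 called lower. The limits set on WT, VAMP7KO and ATG5KO levels made both counts largely what they are, so nothing is read from them.

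The gene that the tests left out was Pcare, a photoreceptor cilium protein. It had 68, 44, 4 and 1 counts in ATG5KO replicates 1 to 4 and 0 in the other 8 libraries. It is a member only because the other libraries were at 0, since 1 count exceeds any multiple of 0.

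The genes are described by group, from lists of genes by function and cell type. List members could be counted only where the study's own supplementary tables paired an identifier with a symbol, which they did for 1976 of the 20842 genes, mainly genes it listed as changed. The counts of other genes called in each list are therefore not independent evidence of a direction. Over all tested genes 23.6% were called higher and 22.7% lower in ATG5KO than in WT. The shares among genes with a symbol are not given. Of the 156 genes, 75 stood in a list and 140 were protein-coding.

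The genes with the most RNA in ATG5KO included membrane proteins of mesothelium. Mesothelial cells line the body cavities, and Upk3b and Lrrn4 are surface proteins used to mark them. Upk3b (uroplakin 3B) was at 332, 333, 91.7 and 87.2 CPM in ATG5KO replicates 1 to 4, at 4.02, 3.32, 1.05 and 1.25 CPM in WT and at 3.23, 2.74, 1.26 and 0.876 CPM in VAMP7KO. Lrrn4, a leucine-rich repeat protein, was at 173, 173, 33.8 and 34.6 CPM in ATG5KO, at 2.01, 2.13, 0.412 and 0.452 CPM in WT and at 1.15, 0.883, 0.210 and 0.319 CPM in VAMP7KO. Both genes were lower in replicates 3 and 4 of every genotype, so that the ratio of the ATG5KO to the WT mean moved little: 90.7 in replicates 1 and 2 against 77.9 in replicates 3 and 4 for Upk3b, and 83.5 against 79.2 for Lrrn4. Of the other surface proteins listed for mesothelium and stroma, Pear1, a platelet and endothelial receptor with EGF-like repeats, was at 9.91, 9.75, 8.51 and 8.22 CPM in ATG5KO and had 1 count in all other libraries together. Tmem108, Thbd (thrombomodulin, the endothelial cofactor of thrombin) and Ecscr (an endothelial surface protein) had mean levels of 8.72 ± 1.23, 8.33 ± 2.61 and 1.46 ± 0.478 CPM (SD, n = 4). Of the other 10 listed surface genes tested, 8 were called higher and 1 lower in ATG5KO than in WT. The 1 identified of 7 endothelial markers, Cdh5, was at 0.0699 to 0.569 CPM in ATG5KO and 0.434 to 0.645 CPM in WT, and its part in these genes was not tested.

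The promoters of some named genes, which do not cover all the groups, are printed here as RefSeq gives them on build GRCr8. Each runs from 250 bases before to 50 bases after the start, 5′ to 3′ along the gene. They are those of Upk3b (chr12:26274191-26274490 on the minus strand), Lrrn4 (chr3:140603937-140604236 on the minus strand), Ccl21 (chr5:61777466-61777765 on the minus strand), Cxcl12 (chr4:152060531-152060830 on the plus strand), Ptgs2 (chr13:64713813-64714112 on the plus strand) and Shisa4 (chr13:49355550-49355849 on the minus strand). Capitals mark matches to any of 8 motifs searched on both strands, whose letters follow the sequences.
Upk3b: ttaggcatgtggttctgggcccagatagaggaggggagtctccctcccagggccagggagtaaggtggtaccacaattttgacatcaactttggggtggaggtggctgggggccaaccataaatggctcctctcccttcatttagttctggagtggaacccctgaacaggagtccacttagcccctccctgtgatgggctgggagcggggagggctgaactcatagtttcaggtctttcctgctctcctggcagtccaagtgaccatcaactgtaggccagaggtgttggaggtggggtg
Lrrn4: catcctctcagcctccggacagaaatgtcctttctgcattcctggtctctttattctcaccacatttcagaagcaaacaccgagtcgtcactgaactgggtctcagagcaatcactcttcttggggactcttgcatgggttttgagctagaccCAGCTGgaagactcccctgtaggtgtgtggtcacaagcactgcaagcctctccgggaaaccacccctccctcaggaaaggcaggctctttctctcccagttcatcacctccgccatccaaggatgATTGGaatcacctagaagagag
Ccl21: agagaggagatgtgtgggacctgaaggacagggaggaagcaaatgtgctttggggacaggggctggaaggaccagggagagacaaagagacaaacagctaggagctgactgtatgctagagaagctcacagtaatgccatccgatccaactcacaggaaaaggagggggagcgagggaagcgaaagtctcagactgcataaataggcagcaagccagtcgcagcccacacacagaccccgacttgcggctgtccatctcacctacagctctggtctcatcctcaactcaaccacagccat
Cxcl12: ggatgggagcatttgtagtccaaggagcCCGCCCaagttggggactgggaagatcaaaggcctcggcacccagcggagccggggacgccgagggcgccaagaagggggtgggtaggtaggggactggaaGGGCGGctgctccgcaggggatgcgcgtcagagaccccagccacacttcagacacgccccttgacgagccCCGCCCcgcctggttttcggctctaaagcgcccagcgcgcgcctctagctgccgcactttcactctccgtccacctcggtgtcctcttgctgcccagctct
Ptgs2: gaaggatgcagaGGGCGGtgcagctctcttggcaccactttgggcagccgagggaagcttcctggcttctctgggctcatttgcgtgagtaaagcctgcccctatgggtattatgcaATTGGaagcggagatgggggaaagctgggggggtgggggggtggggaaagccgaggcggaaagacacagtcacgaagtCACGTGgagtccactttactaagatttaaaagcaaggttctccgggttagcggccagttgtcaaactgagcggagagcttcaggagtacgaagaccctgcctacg
Shisa4: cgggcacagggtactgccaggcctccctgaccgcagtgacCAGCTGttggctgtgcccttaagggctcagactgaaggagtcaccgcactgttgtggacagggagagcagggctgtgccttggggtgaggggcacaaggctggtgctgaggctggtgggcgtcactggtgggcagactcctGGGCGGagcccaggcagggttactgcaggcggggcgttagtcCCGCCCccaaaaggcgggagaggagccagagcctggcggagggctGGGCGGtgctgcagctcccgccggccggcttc

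These 6 sequences had little in common by these measures. Upk3b held 1 CpG dinucleotide and none of the motifs, Lrrn4 held 5 CpG, Ccl21 6, Ptgs2 13, Shisa4 14 and Cxcl12 23. The GC box stood 3 times each in Cxcl12 and Shisa4 and once in Ptgs2. A promoter entry was found for 111 of the 156 genes, with 137 promoters among them, and the comparison was with 21842 promoters of protein-coding genes. The median number of CpG dinucleotides per 300 bases was 9 against 11, and 41.6% against 42.0% of promoters held fewer than 8. The TATA box, written TATAAA, stood in 6.57% of the promoters against 13.02% of all. The CCAAT box stood in 29.9% against 38.0%. The GC box, written GGGCGG, stood in 37.2% against 41.8%. The AP-1 site, searched as TGANTCA, stood in 8.03% against 6.53%. The cyclic AMP element, searched as TGACGTCA, stood in 0.730% against 2.10%. Of the E-boxes, the form CAGCTG stood in 16.8% against 15.2%. The other form, CACGTG, stood in 10.9% against 7.01%. The core of the interferon element, searched as a GAAA followed after any 2 bases by another GAAA, stood in 3.65% against 3.70%. Matches were counted wherever they stood, also where they shared bases with another match. These shares are a description of letters and say nothing of which factors were bound.

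**Figure D3:**
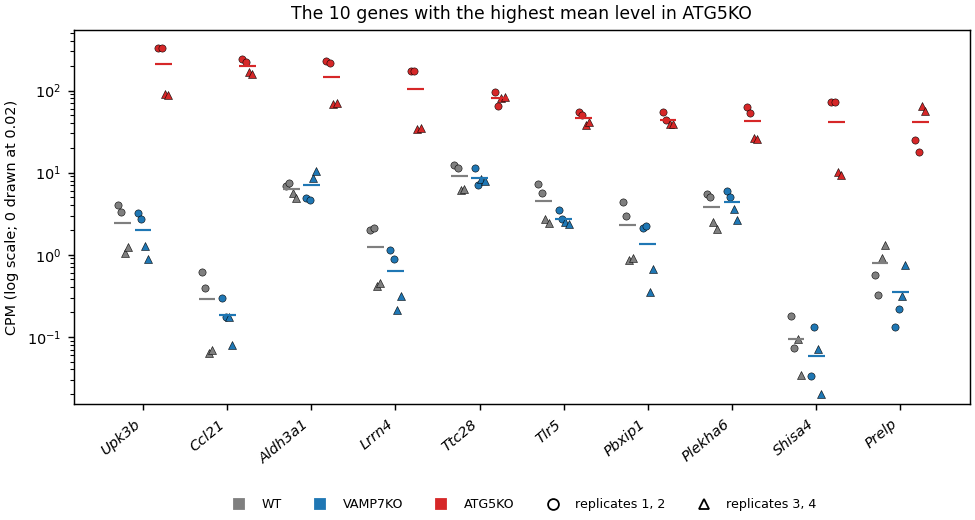
CPM (y axis, log scale, 0 drawn at 0.02) of the 10 genes with the highest mean in ATG5KO, by genotype (colour). Points are libraries (circles, replicates 1 and 2; triangles, replicates 3 and 4) and bars are means of 4. Each ATG5KO library lies above all 8 others for each gene, and Upk3b, Aldh3a1, Lrrn4 and Shisa4 have the widest gap between circles and triangles in ATG5KO.

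Secreted signals formed a second group. Ccl21, a chemokine that draws dendritic cells and T cells through the receptor CCR7, was at 243, 221, 166 and 160 CPM in ATG5KO. It was at 0.610, 0.398, 0.0634 and 0.0695 CPM in WT and at 0.297, 0.177, 0.175 and 0.0796 CPM in VAMP7KO. With libraries under the floor set to the floor, the groups lay further apart than for any other of the 156 genes. Rodent genomes can hold near-identical copies of Ccl21, and how the counting split reads between copies is not known. Cxcl12, the ligand of CXCR4, was at 40.3, 35.8, 9.93 and 9.20 CPM in ATG5KO, and the highest of the 8 other libraries was at 0.265 CPM. Il34 (a ligand of the CSF1 receptor) at 2.13 ± 0.801 CPM, Il16 at 3.85 ± 1.60 CPM, Tnfsf12 (TWEAK) at 1.43 ± 0.372 CPM and the soluble pattern-recognition protein Ptx3 at 1.40 ± 0.914 CPM were lower in level. Artn, a neurotrophic ligand of the GDNF family, was at 5.12 ± 0.769 CPM in ATG5KO, and Epgn (epigen), a ligand of the EGF receptor, at 5.36 ± 3.79 CPM. Of the 44 cytokines and chemokines listed, 17 had an identifier and 7 were among the 156 genes. Of the other 7 that were tested, 4 were called higher and 2 lower in ATG5KO than in WT.

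Receptors for such signals were also present. Tlr5, the receptor for bacterial flagellin, was at 54.4, 50.1, 38.4 and 41.0 CPM in ATG5KO, at 7.35, 5.60, 2.73 and 2.43 CPM in WT and at 3.497, 2.69, 2.49 and 2.35 CPM in VAMP7KO. Tlr5 was therefore well detected in all genotypes, and its ratio of ATG5KO to WT was 8.07 in replicates 1 and 2 and 15.4 in replicates 3 and 4. Il17re, a subunit of the receptor for IL-17C, was at 38.3, 32.3, 23.3 and 21.0 CPM in ATG5KO and at most 2.53 CPM elsewhere. Flt3, a receptor tyrosine kinase of blood progenitors, was at 14.5, 14.99, 4.84 and 4.998 CPM in ATG5KO and at most 0.165 CPM elsewhere. Il18r1 (IL-18 receptor) and Ifnlr1 (receptor of type III interferons) were at 2.88 ± 0.684 and 1.24 ± 0.478 CPM in ATG5KO. Of the 12 other cytokine receptors tested, 9 were called higher and 1 lower in ATG5KO than in WT.

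Genes known from white blood cells numbered 11, of 31 in that list with an identifier. The lists differed in length, and the same count was 8 of 17 for oxidative enzymes and 7 of 17 for cytokines and chemokines. Fcgr2a, a receptor for IgG, was at 34.8, 35.8, 34.2 and 32.0 CPM in ATG5KO, at 5.99, 5.53, 3.24 and 2.15 CPM in WT and at 6.76, 6.89, 5.26 and 4.98 CPM in VAMP7KO. Its ATG5KO libraries agreed closely with each other, and it belongs to a family of similar receptors between which reads may be shared. Arhgap27 was at 29.2 ± 5.03 CPM, Fmnl1 (a formin) at 8.91 ± 6.36 CPM, Lcp1 (the actin bundler L-plastin) at 6.44 ± 2.27 CPM and Rassf5 at 4.58 ± 0.622 CPM in ATG5KO. Cd300a (an inhibitory receptor), Lat2 (an adaptor of immune receptors) and Tnfaip8l2 were at 3.27 ± 0.358, 2.80 ± 1.31 and 2.09 ± 0.356 CPM. Of the other 16 listed genes tested, 12 were called higher and 3 lower in ATG5KO than in WT. Of 11 defining leukocyte markers 3 could be identified (Ptprc, Cd74 and Cd3e), and their summed level was 0.384 to 1.49 CPM in ATG5KO, 0.456 to 1.09 CPM in VAMP7KO and 5.52 to 17.2 CPM in WT. Ptprc, the common leukocyte antigen, was at most 0.0699 CPM in ATG5KO, at 0 in VAMP7KO and at 2.66 to 13.3 CPM in WT. In bulk RNA more cells of one type and more RNA per cell cannot be told apart, which applies to all levels given here.

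Enzymes of oxidation and detoxification accounted for 8 genes. Aldh3a1, an aldehyde dehydrogenase that clears reactive aldehydes, was at 232, 215, 68.1 and 70.3 CPM in ATG5KO, at 6.81, 7.52, 5.71 and 4.90 CPM in WT and at 4.85, 4.68, 8.59 and 10.4 CPM in VAMP7KO. Its ratio of ATG5KO to WT was 31.2 in replicates 1 and 2 and 13.1 in replicates 3 and 4. Ptgs2, the inducible cyclooxygenase of prostaglandin synthesis, was at 39.5, 43.9, 21.1 and 21.9 CPM in ATG5KO, with all WT libraries at the floor and at most 0.221 CPM in VAMP7KO. With libraries under the floor set to the floor, the lowest ATG5KO library was 95.6 times the highest other one. Phyh (peroxisomal oxidation of phytanic acid) was at 12.7 ± 2.49 CPM, Cyp24a1 (breakdown of active vitamin D) at 5.34 ± 1.54 CPM and Suox (sulfite oxidase) at 1.45 ± 0.2395 CPM. Of the 6 other listed enzymes tested, 4 were called higher and 1 lower in ATG5KO than in WT.

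Duox1, a dual oxidase that makes hydrogen peroxide, and Duoxa1, the factor that brings it to the cell surface, are neighbours on chromosome 3 with no protein-coding gene between them, and both were among the 156 genes. Duox1 was at 4.50, 5.83, 8.47 and 7.85 CPM and Duoxa1 at 1.94, 2.24, 5.67 and 5.42 CPM in ATG5KO, and the highest level in the other libraries was 0.557 and 0.127 CPM. In ATG5KO the libraries of replicates 3 and 4 lay above those of 1 and 2 for both genes, and edgeR's quasi-likelihood test called the difference for Duoxa1 (adjusted p of 0.000968) but not for Duox1 (adjusted p of 0.0502). The promoters lie on opposite strands, Duox1 at chr3:129715746-129716045 on the plus strand and Duoxa1 at chr3:129713957-129714256 on the minus strand. They are printed as above because this was an adjacent pair of genes with linked function.
Duox1: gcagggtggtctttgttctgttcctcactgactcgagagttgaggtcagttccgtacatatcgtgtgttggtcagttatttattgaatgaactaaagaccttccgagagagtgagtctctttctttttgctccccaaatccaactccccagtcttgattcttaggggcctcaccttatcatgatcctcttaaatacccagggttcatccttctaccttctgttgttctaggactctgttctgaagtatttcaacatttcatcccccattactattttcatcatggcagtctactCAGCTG
Duoxa1: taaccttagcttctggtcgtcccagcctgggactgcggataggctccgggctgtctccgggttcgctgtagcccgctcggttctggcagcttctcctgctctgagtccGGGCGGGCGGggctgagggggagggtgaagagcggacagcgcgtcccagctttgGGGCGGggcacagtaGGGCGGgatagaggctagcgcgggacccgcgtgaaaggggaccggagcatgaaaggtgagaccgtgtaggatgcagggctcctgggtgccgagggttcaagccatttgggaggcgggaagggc
The Duox1 promoter held 4 CpG dinucleotides and the Duoxa1 promoter 23, with GC boxes in the second and none in the first. The strand setting of the authors' counting is not given in the sources used here, so reads of overlapping or antisense transcripts cannot be told apart.

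Genes of muscle and of the contractile cytoskeleton formed a further group. Synpo2, an actin-bundling protein of the sarcomere Z-disc, was at 28.7, 32.3, 49.2 and 50.4 CPM in ATG5KO and at 1.04 to 1.91 CPM elsewhere. Svil (supervillin, an actin and myosin binder) was at 60.4, 43.5, 25.8 and 29.0 CPM and Cacnb1 (the beta subunit of the skeletal calcium channel) at 35.7, 37.9, 21.0 and 18.4 CPM in ATG5KO. The values elsewhere were at most 5.17 CPM for Svil and 0.903 CPM for Cacnb1. Musk (the receptor kinase of the neuromuscular junction) was at 12.0 ± 3.86 CPM, Unc45b (a myosin chaperone) at 5.75 ± 2.18 CPM, Cacna1c (an L-type calcium channel) at 3.32 ± 0.312 CPM and Cdh15 (M-cadherin) at 1.33 ± 0.285 CPM. Myocd (myocardin, a coactivator of smooth muscle genes) was at 1.51 ± 0.336 CPM. Of the other 22 listed genes of striated muscle that were tested, 19 were called higher and 3 lower in ATG5KO. Of 10 defining skeletal muscle markers 3 could be identified (Myod1, Des and Cdh15), and they summed to 77.8 to 95.9 CPM in ATG5KO, 1.71 to 4.70 CPM in WT and 0.751 to 1.43 CPM in VAMP7KO. Their part in the muscle genes was not tested.

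Matrix proteins were represented by 7 genes. Prelp, a small leucine-rich proteoglycan that anchors basement membranes, was at 24.8, 18.0, 64.3 and 56.3 CPM in ATG5KO, at 0.574, 0.325, 0.920 and 1.32 CPM in WT and at 0.132, 0.221, 0.315 and 0.756 CPM in VAMP7KO. Here replicates 3 and 4 were the higher ones in each genotype, and the ratio of ATG5KO to WT was 47.7 in replicates 1 and 2 and 53.9 in replicates 3 and 4. Sned1, an interstitial matrix protein, was at 19.0, 10.6, 5.46 and 5.42 CPM in ATG5KO with all 8 other libraries at the floor. Timp3, a metalloproteinase inhibitor, was at 9.31 ± 2.95 CPM and Chi3l1, a chitinase-like glycoprotein, at 6.51 ± 5.39 CPM. Mepe, Svep1 and Dpt (dermatopontin) were at 3.40 ± 1.34, 2.03 ± 0.685 and 1.63 ± 0.856 CPM. Of 20 other listed matrix genes that were tested, 16 were called higher and 2 lower in ATG5KO. The summed level of the 6 identified of 11 fibroblast markers was 2265 to 4112 CPM in ATG5KO, 564 to 1586 CPM in WT and 1082 to 3231 CPM in VAMP7KO, most of it Col1a1 and Col3a1. Mean Col1a1 was 884 CPM in WT, 1127 CPM in VAMP7KO and 2113 CPM in ATG5KO, and mean Col3a1 was 120, 746 and 807 CPM in the same order. Thy1, a fibroblast surface glycoprotein, was at 0.349 CPM in WT, 0.110 CPM in VAMP7KO and 145 CPM in ATG5KO. Twist1 was at 66.0, 102 and 70.6 CPM, Lum at 3.87, 164 and 69.8 CPM and Dcn at 0.0655, 2.14 and 0.817 CPM in that order, so these markers did not share one order of the genotypes. Of 8 epithelial markers the 1 identified, Krt8, was at 563 to 791 CPM in ATG5KO, 686 to 852 CPM in WT and 439 to 557 CPM in VAMP7KO. Their part in the matrix and surface genes was not tested.

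Receptors and channels of other kinds were mostly of moderate level. Adgrl1, the adhesion receptor latrophilin, was at 40.3, 34.2, 39.4 and 40.1 CPM in ATG5KO and at most 6.004 CPM elsewhere. Npr2, the guanylyl cyclase receptor of C-type natriuretic peptide, was at 21.4, 16.9, 10.003 and 9.39 CPM in ATG5KO and had 1 count in the other 8 libraries together. Its lowest ATG5KO library was 70.9 times the highest other one after the same setting of low libraries to the floor. Celsr2, a planar polarity cadherin, was at 18.1, 21.0, 2.98 and 4.67 CPM in ATG5KO with all 8 others at the floor. Kcnj9 (a G protein-gated potassium channel) was at 10.3 ± 2.04 CPM, Trpv2 (a cation channel) at 9.93 ± 6.06 CPM and Kcnt1 (a sodium-activated potassium channel) at 3.64 ± 2.75 CPM. Of the other listed channels 16 were tested, with 11 called higher and 3 lower, and of the other listed receptors of these kinds 12, with 10 called higher and 1 lower. Of the neuronal genes, Ptprn, a protein of dense-core vesicles, was at 12.3 ± 1.36 CPM, Hap1 at 9.95 ± 1.63 CPM, Nsmf at 1.09 to 3.03 CPM, and Shank3 (a postsynaptic scaffold) and Lynx1 (a modulator of nicotinic receptors) at 1.70 ± 0.328 and 1.65 ± 0.536 CPM. All 20 other tested genes of that list were called higher in ATG5KO.

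Intracellular regulators were low in level. Among transcription factors, Meox1 (a homeobox factor of the somite) was at 3.46, 2.03, 2.07 and 2.24 CPM in ATG5KO and at 0 in all 8 others. Tfap2e was at 1.66, 2.27, 0.909 and 1.68 CPM and Batf at 1.42, 1.05, 1.60 and 1.03 CPM, again with 0 counts in all 8 others. Against the mean floor of the WT libraries the ATG5KO mean was at least 23.6-fold higher for Meox1, at least 15.7-fold higher for Tfap2e and at least 12.3-fold higher for Batf. Creb3l1, a membrane-bound factor that regulates collagen secretion, was at 1.38 ± 0.271 CPM. None of the 5 transcription factors was over 3 CPM at the mean, and of 23 other listed factors tested 16 were called higher and 5 lower. In TGF-beta and BMP signalling, Wfikkn2 (an antagonist of myostatin), Smad9 and Bmper (a BMP-binding protein) were at 4.11 ± 0.585, 3.28 ± 0.215 and 1.15 ± 0.330 CPM. Of 12 other listed genes of these pathways, 9 were called higher and 1 lower. Among genes that interferon induces, Slfn5 was at 8.99 ± 3.32 CPM and Oas3, a sensor of double-stranded RNA, at 1.33 ± 0.423 CPM. The other tested genes of that list numbered 16, of which 12 were called higher and 3 lower. From the list of junction and keratin genes came Exph5 at 7.08 ± 3.80 CPM, Evpl (envoplakin) at 6.07 ± 4.23 CPM and Cgn (cingulin) at 1.45 ± 0.343 CPM. A place in that list does not mean that the gene encodes a junction protein. Of 11 other listed genes, 7 were called higher and 1 lower.

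Several of the highest genes belonged to none of these lists. Ttc28 was at 94.8, 64.8, 81.7 and 84.4 CPM in ATG5KO, at 12.3, 11.5, 6.12 and 6.32 CPM in WT and at 7.02 to 11.2 CPM in VAMP7KO. Pbxip1 (a PBX-interacting protein) was at 54.4, 43.9, 38.9 and 39.4 CPM, and Plekha6 at 63.7, 53.9, 26.1 and 25.8 CPM in ATG5KO. Shisa4, a single-pass membrane protein, was at 71.5, 73.2, 10.2 and 9.39 CPM in ATG5KO and at most 0.179 CPM elsewhere. Enpp2 (autotaxin, which makes lysophosphatidic acid) was at 74.1, 47.6, 12.2 and 14.1 CPM in ATG5KO and at 0.319 to 1.18 CPM elsewhere. Chmp4c, an ESCRT-III subunit of membrane scission, was at 17.0, 18.9, 13.9 and 16.6 CPM in ATG5KO and at most 0.143 CPM elsewhere. Of the 15 genes without a symbol, ENSRNOG00000062986 was the highest, at 41.7, 41.7, 32.4 and 30.7 CPM in ATG5KO and at most 0.466 CPM elsewhere. ENSRNOG00000068444 was at 16.7 ± 0.581 CPM in ATG5KO with all 8 others at the floor.

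The difference between the replicate sets of ATG5KO was not itself a limit in the choice of genes, but the same libraries were used in it. The lowest ATG5KO library, which the rule compares, was in replicates 3 and 4 for 112 genes and in replicates 1 and 2 for 44. The highest of the other 8 libraries was in replicates 1 and 2 for 115 genes, in replicates 3 and 4 for 35, and all 8 were at 0 for 6. The shares below therefore stand beside those of all tested genes as a description, and the split had been seen in these data before it was tested. In ATG5KO replicates 3 and 4 against 1 and 2, edgeR's quasi-likelihood test, adjusted by Benjamini-Hochberg, called 73 of the 155 genes, or 47.1%, where 52.1% of all tested genes were called. Called lower in replicates 3 and 4 were 62 genes (40% of the tested members, against 27.6% of all tested genes), 33 of them by more than 1 on the log2 scale. Called higher were 11 genes (7.10%, against 24.4%), and 82 were not called. The median log2 difference was -0.39 for the 155 genes and -0.03 for all tested genes.

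**Figure D4:**
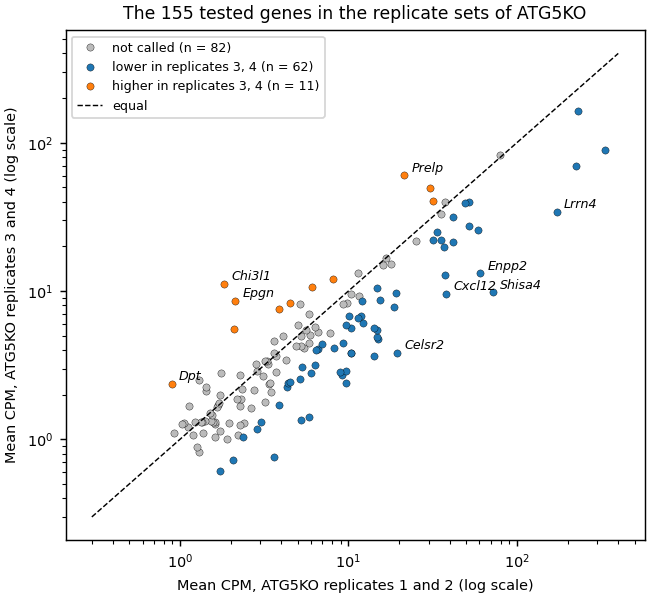
Mean CPM in ATG5KO replicates 3 and 4 (y axis, log scale) against replicates 1 and 2 (x axis, log scale) for the 155 tested genes. Blue points (62) were called lower and orange points (11) higher in replicates 3 and 4; the 82 grey points were not called, and the dashed line marks equal levels.

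The 5 genes called lower by the most were Shisa4, Celsr2, Lrrn4, Pnpla3 (a lipid droplet lipase) and Enpp2. Shisa4 fell by 2.88 (SE 0.133) and Lrrn4 by 2.34 (SE 0.0850) on the log2 scale, with adjusted p of 1.37e-11 and 6.98e-13 (edgeR's quasi-likelihood test). Celsr2 differed by -2.37 (SE 0.202), Pnpla3 by -2.25 (SE 0.352) and Enpp2 by -2.21 (SE 0.173). The 2 libraries of each set did not overlap those of the other set for any of the 5. They were picked by this same difference, so nothing is read from that. Upk3b differed by -1.89 (SE 0.0801), Cxcl12 by -1.99 (SE 0.156), Aldh3a1 by -1.69 (SE 0.0867) and Ccl21 by -0.50 (SE 0.0770), and all 4 were called lower. The highest 5 were Chi3l1 at 2.60 (SE 0.237), Epgn at 1.97 (SE 0.326), Prelp at 1.51 (SE 0.154), Dpt at 1.41 (SE 0.360) and Duoxa1 at 1.40 (SE 0.306). Chi3l1 went from 1.75 and 1.92 CPM to 11.3 and 11.1 CPM, with an adjusted p of 8.17e-08 (edgeR's quasi-likelihood test). Of these 5, Chi3l1, Prelp and Dpt are matrix or secreted glycoproteins, but of the 7 listed matrix genes 3 were called higher and 3 lower. Ttc28, Adgrl1 and Fcgr2a had values of 0.06 (SE 0.146), 0.10 (SE 0.113) and -0.09 (SE 0.114) and were not called.

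**Figure D5:**
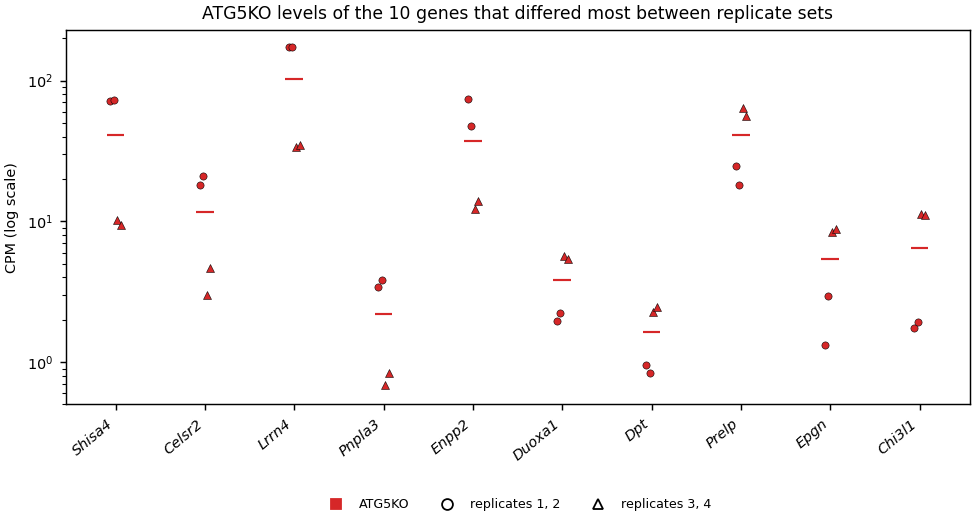
CPM (y axis, log scale) in the 4 ATG5KO libraries for the 5 genes called lower by the most (left) and the 5 called higher by the most (right) in replicates 3 and 4. Circles are replicates 1 and 2, triangles replicates 3 and 4, and bars the mean of 4. Circles and triangles do not overlap for any of the 10 genes, which were picked by this same difference.

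The same sets could be compared in the other genotypes, where these genes were low. No count over the members is given there, because all 4 WT libraries were at the floor for 51 of them and all 8 other libraries for 41. In WT 61.9% of all tested genes were called between the sets, 31.4% lower and 30.5% higher in replicates 3 and 4. In VAMP7KO 56.1% were called, 28.3% lower and 27.8% higher. Upk3b, Lrrn4, Cacnb1, Pbxip1 and Plekha6 were among the genes called lower in replicates 3 and 4 in each of the 3 genotypes. Others called lower in all 3 are not named here, so the names do not give the balance of directions. Upk3b differed by -1.56 on the log2 scale in WT and by -1.46 in VAMP7KO, and Lrrn4 by -2.13 and -1.95. Prelp and Chi3l1 were called higher in replicates 3 and 4 in each genotype. Prelp differed by 1.41 on the log2 scale in WT and by 1.61 in VAMP7KO, and Chi3l1 by 1.36 and 3.18. Chi3l1 was close to the floor in WT replicates 1 and 2, at a mean of 0.144 CPM. These comparisons were chosen after the levels had been seen.

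The choice itself was repeated within each set. The same limits chose 211 genes from replicates 1 and 2 and 251 genes from replicates 3 and 4, and 129 genes were in both, which is 61.1% of the first and 51.4% of the second. For 41 of the 156 genes both WT libraries of each set were above the floor. Their ratio of ATG5KO to WT was at least 5.80 in either set, and its median was 15.9 in the first set and 15.4 in the second. The rule required every ATG5KO library to exceed 4 times every WT library. A ratio over 4 in each set was therefore fixed by the choice, and these values are a description. Within ATG5KO, the highest library was 1.92 times the lowest at the median of the 156 genes, less than 2 times for 84 genes and more than 4 times for 15.

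On the genome the genes were spread over many chromosomes. By the band given in the study's tables, chromosome 10 held 19, chromosome 2 held 18, chromosome 13 held 16, chromosome 3 held 12 and chromosome 5 held 10. The band 2q34 held 11 (among them Pbxip1, Celsr2, Pear1, Tnfaip8l2 and Cgn) and 13q13 held 6 (among them Plekha6, Shisa4, Prelp and Chi3l1). For 137 symbols found in RefSeq, 4 pairs were next to each other among protein-coding genes: Unc45b and Slfn5 on chromosome 10, Duoxa1 and Duox1 on chromosome 3, Svep1 and Musk on chromosome 5, and Pcare and Togaram2 on chromosome 6. A further 4 pairs had 1 to 3 protein-coding genes between them, namely Adcy10 and Rcsd1, Fmnl1 and Arhgap27, Prelp and Chi3l1, and Kcnj9 and Igsf9. No share of all genes stands beside these counts and pairs, and clustering was not tested. Members of a pair did not always move alike between the sets: Unc45b differed by 0.96 (SE 0.251) and Slfn5 by -0.77 (SE 0.215) on the log2 scale and both were called, whereas Prelp and Chi3l1 were both higher in replicates 3 and 4.

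For comparison, the mirrored limits chose 26 genes lost in ATG5KO alone, and the same limits applied to VAMP7KO chose 3 genes gained there alone. Reads of RT1-N2, Abo3 and Timm8a2, which like Ccl21 and Fcgr2a belong to families with similar copies, may have been shared with those copies, and their levels are uncertain.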

How the data were processed

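RNA-seq of WT, VAMP7KO and ATG5KO NRK cells gave 12 libraries, grouped by their labels. The authors trimmed the reads, removed ribosomal RNA, aligned what was left with STAR (genome build mRatBN7.2) and tallied reads per Ensembl gene with htseq-count. They deposited the counts per gene without normalization, and a separator missing from the header was restored by position. Symbols, types and bands came from the study's supplementary tables, promoters and gene order from RefSeq (GRCr8).

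CPM used column totals. Tests used the quasi-likelihood method of edgeR 4.0.16 (with limma 3.58.1 in R 4.3.3) and TMM on 13141 genes kept by filterByExpr, all 12 libraries together, and Benjamini-Hochberg adjustment. Genotypes were compared with the replicate number as a block. Replicate sets were compared within genotype, without that block. Calls needed an adjusted p under 0.05. Floors of 3 counts cover counting error only.

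The members, the gene lists and the tests were chosen with earlier results of these data known. Named genes are the 10 highest by mean ATG5KO level, the 10 highest by ratio to the other libraries, at most 8 per list, the 5 highest and 5 lowest by set difference, those next to the limit, and genomic neighbours. Ttc28, Adgrl1, Fcgr2a, Lrcol1 and others named for the sets were picked after their values were seen. Alternatives were DESeq2 (1.42.0), other size factors, filters, blocks and limits, and each library left out. Python 3.11.15, pandas 2.3.3, numpy 2.4.6 and matplotlib 3.10.9 were also used. Values of some list members are not reported here.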

Additional observations from a re-analysis of the deposited data

Results flagged for a closer look

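Of 89 named genes tested for a library far from the other 3 of ATG5KO, 3 were marked, where chance marks about 1 in 20. Tnfaip8l2, which restrains immune receptor signalling, was at 2.62 CPM in replicate 2 and at 1.87 to 1.99 CPM in the others. Adgrl1 was at 34.2 CPM in replicate 2 and at 39.4 to 40.3 CPM in the others. Meox1 was at 3.46 CPM in replicate 1 and at 2.03 to 2.24 CPM in the others. The cause was not tested.

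For Thbd, Lcp1, Aldh3a1, Il17re and Lrcol1 the replicate sets differed one way in ATG5KO and the other way in another genotype. Each difference was called by edgeR's quasi-likelihood test (log2 differences of replicates 3 and 4 minus 1 and 2). Other genes were called the same way in both genotypes. Opposite calls were not counted over all tested genes, so whether they were unusual here is not known. Thbd differed by 0.80 in ATG5KO, -5.71 in WT and -4.90 in VAMP7KO. Lcp1 differed by 0.88 in ATG5KO and -2.32 in WT, where its mean in replicates 3 and 4 was 0.0649 CPM, under the floor. Aldh3a1 differed by -1.69 in ATG5KO and 1.0025 in VAMP7KO. Il17re differed by -0.67 in ATG5KO and 0.60 in VAMP7KO, and Lrcol1 by -0.68 and 1.95. The difference between genotypes was not tested, and Thbd was at 0 counts in replicates 3 and 4 of WT and VAMP7KO, so that its fitted values there depend on the prior count.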

How the results depend on the processing

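The number of genes chosen depended on the limits. A fold of 2 chose 242 genes and a fold of 8 chose 92, against 156 at a fold of 4, and the limits applied to replicates 3 and 4 only chose 251. Leaving out 1 library gave 148 to 166 genes. The count called in ATG5KO against WT was 155 with each library left out and 151 with DESeq2. The members were kept fixed here and had been chosen by this same contrast, so nothing is read from how little it moved. The count called in VAMP7KO against WT was small and moved with the fit: 5 with the replicate number as a block, 2 with no replicate block, 10 with the set as replicate block, 8 with DESeq2 and 2 to 7 with 1 library left out. It was lowest without VAMP7KO replicate 1, at 2, and was 3 without WT replicate 1 and without VAMP7KO replicate 2, 3 or 4. The numbers are not known to pair the libraries beyond the set: deviations from the genotype mean correlated at 0.562 to 0.681 for equal numbers and at 0.529 to 0.677 for other numbers of the same set. The count of 73 genes that differed between the sets of ATG5KO was 54 to 69 with 1 ATG5KO library left out, 60 with DESeq2 and 81 when only the ATG5KO libraries were fitted. A direction was recomputed only for the set differences of the 10 genes named for them. None of these 10 reversed under the alternatives run. They were picked as the largest differences and the same libraries were fitted again, so nothing is read from this.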
